A study of Homo sapiens with 6 samples.

Results

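Desmosomes are junctions that hold neighboring epithelial cells together and anchor their keratin filaments at the membrane. Their adhesive proteins are 2 families of cadherins, the desmogleins and desmocollins, whose tails bind plakoglobin and the plakophilins, and desmoplakin ties this plaque to keratin. DSG2 and DSC2 are widespread in simple epithelia, whereas DSG1, DSG3, DSC1, DSC3 and PKP1 are best known from stratified epithelia, and in the breast DSG3 and DSC3 are known from the basal, myoepithelial layer. The genes described here are 3 desmocollins (DSC1, DSC2, DSC3), 3 desmogleins (DSG1, DSG2, DSG3), desmoplakin (DSP) and 3 plakophilins (PKP1, PKP2, PKP3). They were taken by gene name alone from the probe annotation of the arrays, which gave 13 probes for the 10 genes, of 34127 probes and 25940 gene names in all.

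The 2 lines compared were both derived from T47Dco, given in the labels as T47D, a luminal human breast cancer line with estrogen and progesterone receptors, after growth as xenografts in mice. Pure luminal cells (pLUM) came from a tumor grown with estradiol (E) and were sorted for claudin 3 (CLD3) without the integrin CD49f, and they were given 1 nM E for 72 h before RNA was made. Pure luminobasal cells (pLB) came from a tumor grown with E and progesterone, were sorted for CD49f without CLD3, and were kept under estrogen withdrawal (EWD). For RNA, cells of each line were fixed with RNAlater, stained for cytokeratin 5 (CK5) and sorted again, and whether CK5+ or CK5- cells went onto the arrays is not given in the labels. Each line was established once and is represented by 3 arrays, and line and hormone coincided on all 6, so that the effects of these cannot be told apart.

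Each array measured 1 sample in a single color. The intensity of a spot was divided by the 75th percentile of its array and is given as log2, so that a value of 0 equals that percentile. Probes of different genes bind with different strength, and levels are therefore compared between lines and not between probes. A probe was tested if it was well above background on at least 3 of the 6 arrays, which left 23106 probes of 17671 genes. It was called higher or lower if the lines differed by 2-fold or more with a Benjamini-Hochberg adjusted p under 0.05 over all tested probes in limma. The 75th percentile intensity was 474 to 566 on pLUM and 449 to 869 on pLB arrays, no gene spot was saturated, and Pearson's r across tested probes was 0.972 to 0.991 within a line and 0.780 to 0.806 between lines. Over all genes the median difference between lines was 0.04, and it moved to 0.30 with spike-in scaling and to -0.21 with normexp background correction. The 3 pLUM arrays and pLB replicate 1 lay on slide 1, and pLB replicates 2 and 3 on slide 2. The p-values measure the spread between these sorted samples of 1 line each.

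Markers of each line went with the labels, which is not an independent check. CLDN3 and ITGA6 encode CLD3 and CD49f, used to sort the lines, and KRT5 encodes CK5, used to sort the cells for RNA. All markers named here are also listed in the paper with RNA differences between the lines. All 6 luminobasal markers (KRT5, ITGA6, TP63, ANXA1, SNAI2, EGFR) were called higher in pLB, and 7 of 8 luminal markers (GATA3, FOXA1, ESR1, PGR, CLDN3, MUC1, KRT8) were called lower, with KRT18 the exception. Their summed levels, as multiples of the 75th percentile, were 0.362 to 0.377 in pLUM and 103 to 123 in pLB for the luminobasal list, and 255 to 280 and 82.5 to 87.1 for the luminal list. KRT8 was no longer called with spike-in scaling, at -0.99.

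Sequences are shown for the members on which the results turn. The first pair is the stretch upstream of DSG3 and of DSG1, desmogleins of 1 cluster that differed in whether they were detected. Both are from RefSeq (GRCh38.p14), end at the base before the annotated start and are read 5′ to 3′ on the + strand, at chr18:31447491-31447740 for DSG3 and chr18:31317910-31318159 for DSG1. Capitals mark their longest shared run of 20 bases, which begins at position -78 from the start of DSG3 and -120 from that of DSG1. Among 35116 promoter windows of the same table, 2 hold this run, those of DSG1 and DSG3.
DSG3 upstream: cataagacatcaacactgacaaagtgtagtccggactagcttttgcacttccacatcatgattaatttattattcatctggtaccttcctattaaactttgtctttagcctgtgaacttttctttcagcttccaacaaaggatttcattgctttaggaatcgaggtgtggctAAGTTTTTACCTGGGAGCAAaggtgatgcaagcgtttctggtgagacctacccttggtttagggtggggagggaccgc
DSG1 upstream: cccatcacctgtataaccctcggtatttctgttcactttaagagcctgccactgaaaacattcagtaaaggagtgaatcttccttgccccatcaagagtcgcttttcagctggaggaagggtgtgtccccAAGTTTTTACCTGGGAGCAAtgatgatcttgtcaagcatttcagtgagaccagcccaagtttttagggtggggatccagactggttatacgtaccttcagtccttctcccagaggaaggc

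The second pair is the 2 probes of PKP1, whose overlap decides whether they count as separate measurements. Probe a lies at chr1:201297905-201297964 and probe b at chr1:201297916-201297975 of hg19, both on the + strand and both listed for NM_000299. Capitals mark the 49 bases that they share, so their values are not independent.
PKP1 probe a: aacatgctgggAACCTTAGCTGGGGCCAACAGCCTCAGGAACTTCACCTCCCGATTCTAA
PKP1 probe b: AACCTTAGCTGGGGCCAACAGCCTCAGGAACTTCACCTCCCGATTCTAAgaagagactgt

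The third set is the probes of the widespread cadherins, shown because these were measured on every array. DSC2 (NM_024422) is read from the - strand by 60 bases that span 814 bases of hg19, chr18:28650796-28651609, so that this probe crosses at least 1 intron and reports spliced RNA. DSG2 (NM_001943) is read on the + strand at chr18:29126460-29126519.
DSC2 probe: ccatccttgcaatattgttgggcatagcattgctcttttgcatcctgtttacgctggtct
DSG2 probe: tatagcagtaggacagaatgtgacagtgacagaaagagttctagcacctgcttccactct

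The last is a probe of DSC3, a gene that gave no signal well above background on any array. It is listed for NM_001941 at chr18:28576935-28576994 of hg19 on the - strand.
DSC3 probe b: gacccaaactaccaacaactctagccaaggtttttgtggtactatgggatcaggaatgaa

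Every desmosome probe that could be tested was higher in pLB. These were 10 probes of 8 genes (DSC1, DSC2, DSG2, DSG3, DSP, PKP1, PKP2 and PKP3), and 0 were lower. Across all tested probes 21.9% were called higher and 23.7% lower, and across genes the shares were 22.7% and 23.0%. The arrays of the lines did not overlap for any of the 10 probes, as for 34.3% of all tested probes with pLB higher. A gene seen only in pLB could pass the detection filter only by being higher there, which holds for DSG3 and 1 probe of PKP1. DSC1 and the other PKP1 probe were above background on 1 pLUM and 3 pLB arrays, so they too passed only with the pLB arrays. Probes called higher that were above background on no pLUM array made up 4.02% of all tested probes. The count is therefore also given for the 6 probes of 5 genes (DSC2, DSG2, DSP, PKP2 and PKP3) that were well above background on all 6 arrays, and all 6 were called higher, against 19.8% higher and 20.7% lower of all probes held to that filter. The remaining 3 probes, for DSG1 and DSC3, were not tested. In RNA of sorted cells, more cells that express a gene cannot be told apart from more RNA per cell.

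**Figure D1:**
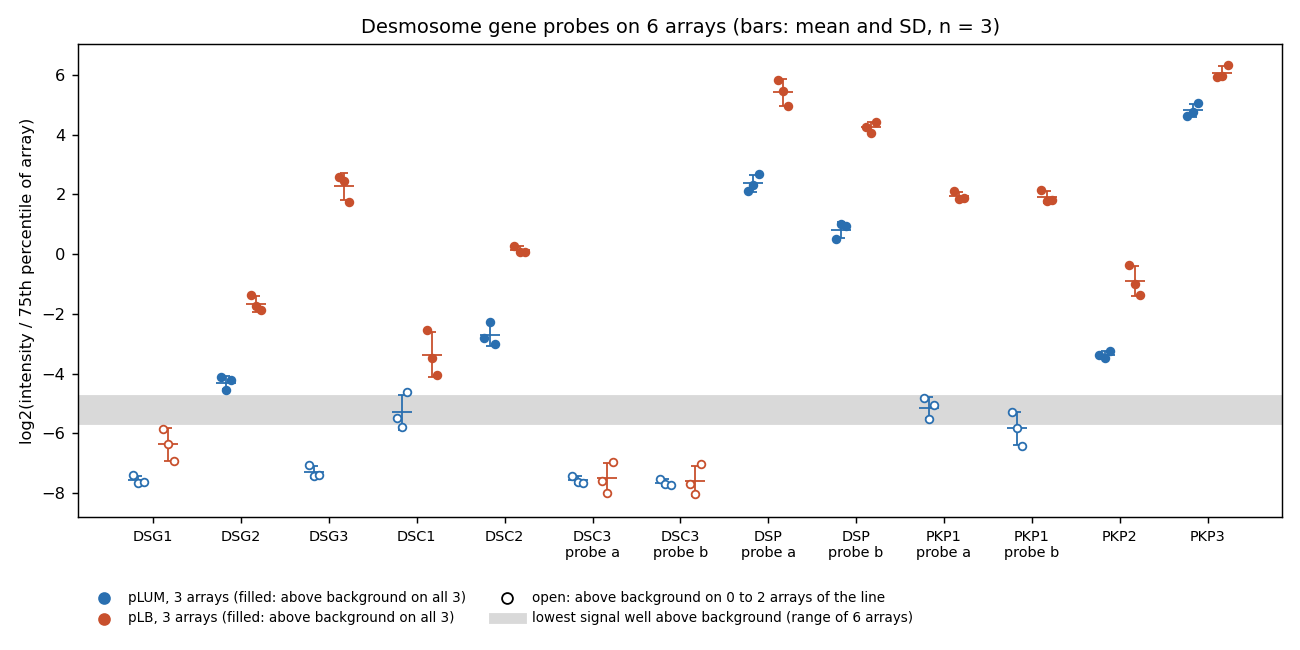
Signal of the 13 desmosome probes on each array, as log2 of intensity over the array's 75th percentile, with 3 pLUM (blue) and 3 pLB (red) arrays a probe and bars for the mean and SD. The gray band spans the lowest signal that was well above background on each of the 6 arrays, from -5.70 to -4.75; filled points are probes above background on all arrays of the line, levels of different probes are not comparable, and the lines overlap only for the DSC3 probes.

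Among the desmogleins, DSG3 showed the largest difference. DSG3, the pemphigus vulgaris antigen of basal keratinocytes, had deposited intensities of 3.56, 3.30 and 3.41 in pLUM and of 5270, 3820 and 1500 in pLB, each in the order of the replicate numbers, which is kept throughout. As log2 over the 75th percentile these are -7.06, -7.41 and -7.38 in pLUM and 2.60, 2.46 and 1.74 in pLB. No pLUM array was above background and all pLB arrays were, with pLB replicate 3 the lowest of these. DSG3 was at least 205-fold higher in pLB. Such a bound takes each array of the dim line at its lowest signal well above background, or at the measured signal where that is higher. An undetected probe can lie above that level, as PKP1 probe b did on pLUM replicate 1 (-5.29 against -5.35), so the bounds are approximate. The fit called it higher (limma adjusted p = 4.8e-07). With normexp background correction the bound fell to at least 24.7-fold.

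DSG2, the desmoglein of simple epithelia, was measured on every array. Its signal was -4.11, -4.56 and -4.22 in pLUM and -1.37, -1.72 and -1.88 in pLB, so all pLB arrays lay above all pLUM arrays. The mean rose from -4.30 ± 0.23 to -1.66 ± 0.26 (SD, n = 3), a 6.23-fold difference (log2 2.64, standard error 0.21, limma adjusted p = 3.7e-05). The fold was 2.13 with normexp background correction, where the call held (limma adjusted p = 0.021).

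DSG1, the desmoglein of upper epidermal layers, was not well above background on any array. It gave -7.40, -7.66 and -7.63 in pLUM and -5.86, -6.34 and -6.93 in pLB. The lines did not overlap, but both lay under the level at which a probe counts as detected, and no fold is given. Without the detection filter limma called it higher (log2 1.19, standard error 0.30, adjusted p = 0.016). With normexp background correction it gave -0.36, but that correction added an offset of 50, and deposited DSG1 intensities were 2.78 to 15. The undetected DSC3 probes gave -0.69 and -0.62 with it, so this sign does not bear on DSG1.

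Of the desmocollins, DSC2, which pairs with DSG2 in most epithelia, was -2.80, -2.28 and -3 in pLUM and 0.28, 0.08 and 0.08 in pLB. The pLB arrays were close together and all above pLUM. The mean rose from -2.69 ± 0.37 to 0.15 ± 0.11 (SD, n = 3), which is 7.14-fold (log2 2.84, standard error 0.22, limma adjusted p = 3.5e-05), or 4.03-fold with normexp background correction.

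DSC1, a desmocollin of differentiated epidermis, was near the limit of detection in pLUM. Its signal of -5.50, -5.78 and -4.63 was above background on 1 pLUM array, and that of -2.55, -3.47 and -4.04 on all 3 pLB arrays. The lines did not overlap, but the gap between the highest pLUM and the lowest pLB array was smaller than the SD within pLB (0.75, n = 3). The fitted difference was 1.95 (standard error 0.44, limma adjusted p = 0.0063), or 3.85-fold. The call ended with normexp background correction, at 0.14 (limma adjusted p = 0.76), and the difference was 2.75 with slide as a block.

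DSC3, the desmocollin of basal keratinocytes, was not detected. Its 2 probes lie 5900 bases apart and share 0 bases, and they gave -7.66 to -7.42 and -7.72 to -7.53 in pLUM and -7.98 to -6.96 and -8.02 to -7.04 in pLB. Both sets overlapped. Without the filter the differences were 0.05 and 0.07, with adjusted p = 0.92 and 0.91 from limma. An array signal under background bounds the transcript and does not show that it is absent.

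Desmoplakin, the plakin that links the plaque to keratin filaments, was bright in both lines. Probe a (chr6:7586582-7586641 of hg19, NM_004415) was 2.13, 2.31 and 2.68 in pLUM and 5.85, 5.48 and 4.95 in pLB. Probe b, which starts 530 bases away and shares 0 bases with it, was 0.50, 1.00 and 0.93 in pLUM and 4.25, 4.06 and 4.44 in pLB. The order of the pLB replicates differed between the probes, but on each all pLB arrays stood above all pLUM arrays. Probe a gave 8.31-fold (log2 3.06, standard error 0.27, adjusted p = 6.6e-05) and probe b 10.8-fold (log2 3.44, standard error 0.20, adjusted p = 9.8e-06) in limma. With normexp background correction probe a gave 3.09.

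Plakophilin 1, an organizer of desmosomes in stratified epithelia, differed most among the plaque genes. Probe a was -4.83, -5.52 and -5.05 in pLUM, where 1 of 3 arrays was above background, and 2.12, 1.84 and 1.89 in pLB. Probe b was -5.29, -5.81 and -6.41 in pLUM, above background on none, and 2.14, 1.79 and 1.83 in pLB. The pLB arrays were tight on both, with an SD of 0.15 on probe a and 0.19 on probe b (n = 3). Probe a gave a 136-fold difference (log2 7.09, standard error 0.22, limma adjusted p = 6.8e-07) and probe b a bound of at least 159-fold. With normexp background correction these were 19.7-fold and at least 21.5-fold. Of all tested probes, 2.93% were called higher by 16-fold or more, and DSG3 and both PKP1 probes were the desmosome probes among them.

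Plakophilin 2, known from simple epithelia and heart, was -3.37, -3.47 and -3.24 in pLUM and -0.37, -1.01 and -1.35 in pLB (chr12:32943741-32943800 of hg19). All arrays were above background and pLB was more spread, with replicate 1 the highest. The mean rose from -3.36 ± 0.12 to -0.91 ± 0.50 (SD, n = 3), or 5.47-fold (log2 2.45, standard error 0.26, limma adjusted p = 0.00017), and 2.66-fold with normexp background correction.

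Plakophilin 3, found in most epithelia, was bright in both lines and showed the smallest called difference. It was 4.64, 4.75 and 5.07 in pLUM and 5.93, 5.98 and 6.32 in pLB (chr11:404848-404907 of hg19), with no overlap. The mean rose from 4.82 ± 0.22 to 6.08 ± 0.21 (SD, n = 3), or 2.39-fold (log2 1.26, standard error 0.20, limma adjusted p = 0.001). With quantile normalization it fell just short of 2-fold (limma adjusted p = 0.0033) and was no longer called.

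Slide 1 held arrays of both lines, so pLB replicate 1 could be set against the pLUM arrays on the same slide. There the differences were 2.93 for DSG2, 9.88 for DSG3, 2.75 for DSC1, 2.97 for DSC2, 3.48 and 3.44 for the DSP probes, 7.26 and 7.97 for the PKP1 probes, 2.99 for PKP2 and 1.11 for PKP3. The values of DSG3 and of the second PKP1 probe are against pLUM signals under background. These differences equal the fit with slide as a block, in which all 10 probes were called. That fit rests on 1 pLB array, which is assumed to vary as the other arrays do within their slide and line. pLB replicate 1 was the highest pLB array on 8 of the 10 tested probes and replicate 3 on the other 2, and the part of slide in this order was not tested.

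**Figure D2:**
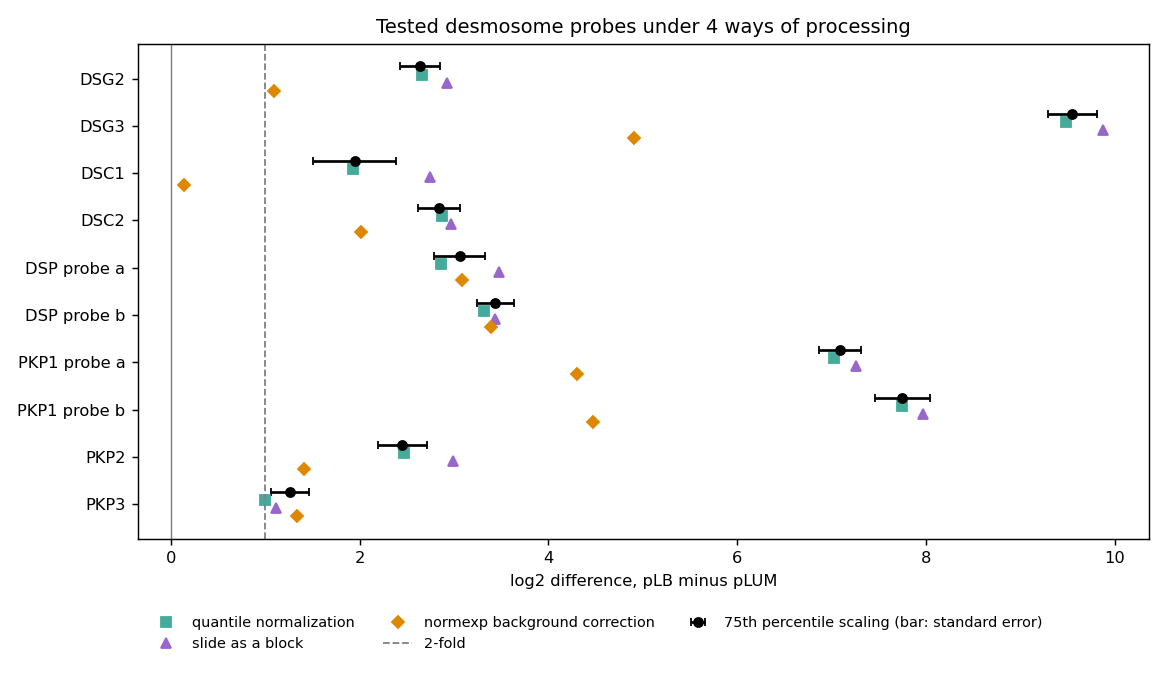
Difference between lines (log2, pLB minus pLUM) of the 10 tested desmosome probes with 75th percentile scaling (black, bars for the standard error), quantile normalization (squares), slide as a block (triangles) and normexp background correction (diamonds). Normexp values lie closer to 0 for DSG3, PKP1, DSG2, DSC2, PKP2 and DSC1 and within the standard error of the black points for DSP and PKP3, and the dashed line marks 2-fold.

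Genes of the same family did not move by equal amounts. For 7 pairs, the log2 ratio of the genes was taken within each array, which needs no scaling between arrays, and compared between lines by a two-sided exact permutation test, for which 3 arrays against 3 allow no p below 0.1. The ratio of DSG3 to DSG2 was higher in pLB by 6.91 as measured (exact permutation p = 0.1), but DSG3 was under background on all pLUM arrays, and with signals under background raised to the detection floor the shift was 5.04. The ratio of PKP1 to PKP2 was higher by 4.64 (exact permutation p = 0.1) and that of PKP1 to PKP3 by 5.83 (exact permutation p = 0.1). The arrays of the lines did not overlap in these ratios. With normexp background correction the shifts of these 3 ratios were 3.81, 2.89 and 2.96. The ratio of PKP2 to PKP3 was higher by 1.19 (exact permutation p = 0.1), a shift that was 0.07 with normexp background correction (exact permutation p = 0.9).
The ratio of DSC1 to DSC2 was lower in pLB by a shift of -0.89 with overlapping arrays (exact permutation p = 0.2). Those of DSG1 to DSG2 and DSC3 to DSC2 shifted by -1.45 and -2.78 (exact permutation p = 0.1 for each), but the first gene of each pair was under background throughout. With a signal floor the shift of DSG1 to DSG2 was -2.52. The p-values are not adjusted for the number of pairs.

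**Figure D3:**
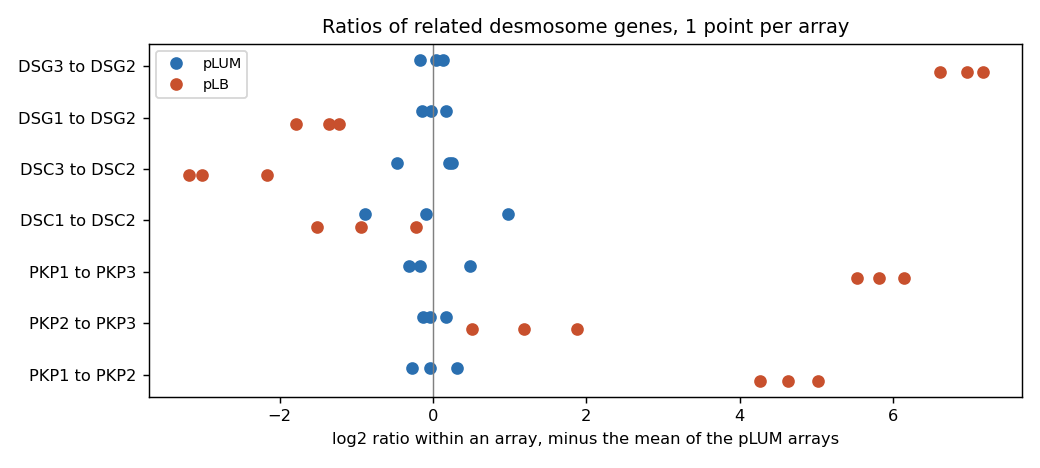
Log2 ratio of related desmosome genes within each array, with the mean of the 3 pLUM arrays set to 0, for pLUM (blue) and pLB (red), 1 point an array. The pLB arrays lie to the right for DSG3 to DSG2 (shift 6.91, with DSG3 under background in pLUM) and the lines overlap for DSC1 to DSC2.

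The 6 cadherin genes lie together on chromosome 18, between 28571035 and 29126519 of hg19, and of the members there 4 were called higher and DSC3 and DSG1 were not detected. DSG4, a further desmoglein of this cluster known from hair follicles, was also under background on all 6 arrays, at -7.41 to -7.20 in pLUM and -7.73 to -6.72 in pLB. Within 1 Mb of the outermost desmosome probes, 6 other genes or transcripts were tested, all beyond DSG2. RNF125, a ubiquitin ligase, was 2.88-fold higher in pLB (limma adjusted p = 0.00046), and FAM59A, now named GAREM1, was 3.92-fold higher (limma adjusted p = 3.7e-05). LOC284242 was 3.45-fold lower (limma adjusted p = 0.00065), and TRAPPC8, RNF138 and an unnamed transcript, at -0.81, -0.90 and -0.70, were not called. With slide as a block these 3 were called lower, at -1.10, -1.05 and -1.19, and RNF125 was not called with normexp background correction, at 0.73.

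**Figure D4:**
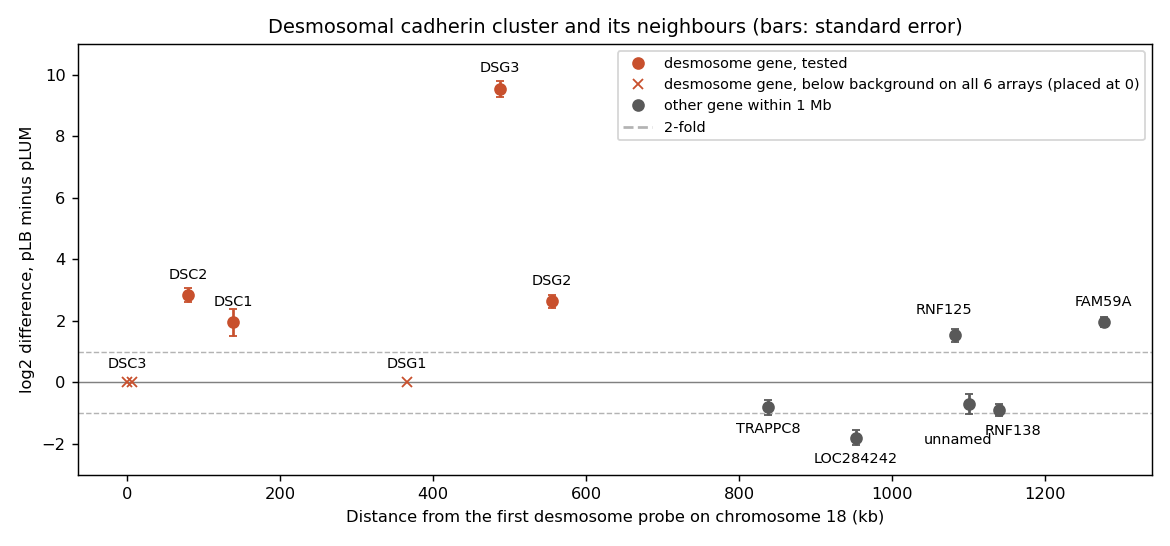
Difference between lines (log2, pLB minus pLUM, bars for the standard error) against distance in kb from the first desmosome probe on chromosome 18, for cadherin genes (red) and the other tested transcripts within 1 Mb (gray). DSG3 stands at 9.55, a fitted value against a pLUM signal under background, DSC2, DSG2 and DSC1 between 1.95 and 2.84, and the other transcripts between -1.79 and 1.97; crosses at 0 mark DSC3 and DSG1, which were not tested.

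RefSeq promoter windows, from 250 bases before to 50 bases after the start, were at hand for 8 of the 10 genes, with 9 windows in all because DSC2 has a pair. PKP2 and PKP3 had none. The letters CAGGTG, the E-box bound by Snail family and ZEB factors, were searched on both strands and occur in the windows of DSG1, DSG2, DSP and 1 of the pair of DSC2, against 20.6% of all 35116 windows. DSG2 and DSP each hold 2 matches. The AP-1 motif TGANTCA and the Grainyhead motif AACNNGTT occur in none of the 9, against 7.71% and 3.52% of all windows, and the AP-2 motif GCCNNNGGC occurs in both windows of DSC2 and in that of DSG2, against 23.2%. DSG3 and PKP1, which differed most, hold none of the 4 motifs in these windows, and neither do DSC1 and DSC3, the latter not detected. A match describes these letters and not binding.

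Desmosome partners outside the cadherin, desmoplakin and plakophilin 1 to 3 families moved in both directions. Of 9 such genes 8 were tested. In pLB 4 were called higher, 1 lower and 3 neither, against 22.7% higher and 23.0% lower of all genes. The median difference was 0.93 against 0.04 over all genes. JUP, or plakoglobin, which joins the cadherin tails to desmoplakin, was 1.34, 1.39 and 1.84 in pLUM and 3.94, 3.54 and 2.99 in pLB. Its lines did not overlap, and the difference was 3.91-fold (log2 1.97, standard error 0.28, limma adjusted p = 0.00064). PERP, a tetraspan membrane protein of desmosomes, was 11.7-fold higher (limma adjusted p = 1.2e-05), and periplakin (PPL) was 3.36-fold higher (limma adjusted p = 0.00047), or 2.18-fold with normexp background correction. KAZN, which binds periplakin, was called at 2.30-fold from a signal near background in pLUM, and lost the call with normexp background correction (-0.24), with a signal floor (0.74) and with slide as a block (0.99).
The plakin envoplakin (EVPL) gave 0.29 (limma adjusted p = 0.22) with overlapping lines. PKP4, a plakophilin relative found at adherens junctions too, gave 0.07, 0.14 and 0.86 on its 3 probes, the last with limma adjusted p = 0.0054 but under 2-fold, and none was called. TCHP, a keratin-binding protein, gave 1.58-fold, under the threshold. PNN, described at desmosomes and in nuclear RNA splicing, was 4.06-fold lower (limma adjusted p = 0.00012), or 2.68-fold with normexp background correction.

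Keratins, to which desmoplakin attaches, split by type. Of 9 filament genes 5 were called higher and 2 lower, against 22.7% and 23.0% of all genes. The basal keratins KRT5, KRT14 and KRT6A were on no pLUM array above background. In pLB KRT5 rose at least 1790-fold, KRT14 at least 564-fold and KRT6A at least 695-fold, and KRT17, detected on 1 of the 3 pLUM arrays, rose 708-fold. Normexp background correction lowered the bounds to 263-fold, 71.9-fold and 83.3-fold, and the rise of KRT17 to 98.0-fold. The simple epithelial keratins KRT8 and KRT19 were 2.40-fold and 6.72-fold lower, KRT18 and KRT7 gave -0.62 and -0.97 and were not called, and KRT7 was called lower with quantile normalization, at -1.10. The probes of KRT8 disagreed, with called differences of -2.57 and 1.89 on the other probes. Vimentin (VIM) was 7.89-fold higher, and 0.82 on the log2 scale and not called with normexp background correction.

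**Figure D5:**
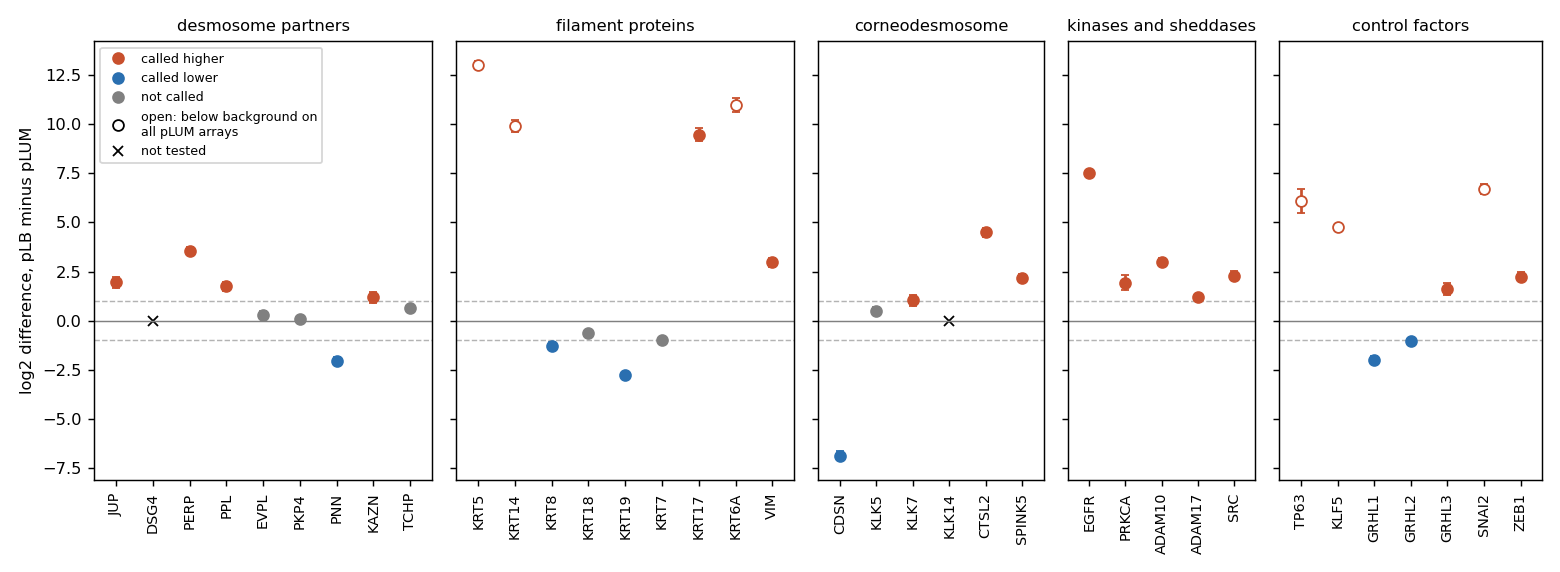
Difference between lines (log2, pLB minus pLUM, bars for the standard error) of genes that work with desmosomes, by list, with called genes in red (higher) or blue (lower) and genes not called in gray. Open points are genes under background on all pLUM arrays, whose fitted values are not bounds, and crosses at 0 were not tested; the filament panel ranges from -2.75 for KRT19 to 12.99 for KRT5.

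Of 5 kinases and sheddases that act on desmosomes, all were called higher in pLB, against 22.7% of all genes. EGFR, whose activity weakens desmosomal adhesion, was 180-fold higher, SRC 4.92-fold, PRKCA 3.82-fold, and the cadherin sheddases ADAM10 and ADAM17 7.99-fold and 2.30-fold. Other EGFR probes gave at least 17.6-fold and a log2 difference of 2.34. With normexp background correction EGFR was 29.1-fold and SRC 3.14-fold higher. PRKCA and ADAM17 were then not called, at 0.88 and 0.96.

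Among 7 transcription factors known to control desmosome or epidermal genes, 5 were called higher and 2 lower, against 22.7% and 23.0% of all genes. TP63, the master regulator of stratified epithelia, KLF5 and SNAI2, which encodes Slug, were under background on all pLUM arrays. The rise in pLB was at least 32.3-fold for TP63, at least 16.6-fold for KLF5 and at least 27.7-fold for SNAI2. These bounds became 5.60-fold, 2.84-fold and 4.52-fold with normexp background correction. ZEB1 and GRHL3 were 4.71-fold and 3.06-fold higher, and neither was called with normexp background correction. GRHL1 was 3.93-fold lower. GRHL2 was 2.06-fold lower, but a second probe was not called, and it lost the call with spike-in scaling (-0.77) and with normexp background correction (-0.90).

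Genes of the corneodesmosome, the desmosome of the outer epidermis, were called in both directions. Of 5 tested, 3 were higher and 1 lower, against 22.7% and 23.0% of all genes. CDSN, or corneodesmosin, was 1.46, 1.39 and 0.82 in pLUM and -5.95, -5.51 and -5.42 in pLB, where 1 of 3 arrays was above background. All pLUM arrays were thus far above all pLB arrays, and CDSN was called lower (limma adjusted p = 1.2e-06). The fold was 115 as measured, 87.4 with a signal floor and 19.3 with normexp background correction. The protease CTSL2, now named CTSV, was 22.4-fold higher. The protease inhibitor SPINK5 was 4.51-fold higher by 1 probe and not called by another, nor with normexp background correction (0.36). KLK7 was called at 2.05-fold, and lost the call with normexp background correction, a signal floor and slide as a block, whereas KLK5 gave 0.49 (limma adjusted p = 0.055) and KLK14 was not tested. Of 5 suprabasal keratinocyte genes, 3 were tested and 1 was called. IVL, or involucrin, was 3.94-fold higher (0.39 and not called with normexp background correction), KRT10 gave 0.02 and FLG -0.34. KRT1 and LOR (loricrin) were above background on 2 of 3 pLB arrays and on no pLUM array, and were not tested.

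Both lines passed through mice, and markers of other cells were therefore read on the same arrays. The probes are for human genes, and how far they read RNA of mouse cells is not known here. Of 4 fibroblast markers, COL3A1 and PDGFRB were under background on all 6 arrays, COL1A1 gave -0.56 and was not called, and COL1A2 was at least 11.7-fold higher in pLB, or at least 2.26-fold with normexp background correction. The summed level of the fibroblast list was 0.719 to 0.945 in pLUM and 0.757 to 1.09 in pLB. Of the immune markers CD68 was called higher (2.87-fold, but 0.09 and not called with normexp background correction), PTPRC gave -0.47 and was not called by 1 probe but was called lower by another (-1.20), and CD3E was not tested, and the sum of their representative probes was 0.117 to 0.200 and 0.135 to 0.243. The endothelial marker PECAM1 and the adipocyte markers ADIPOQ and FABP4 were under background on all arrays, and CDH5 was not called. The sums of the fibroblast and immune lists thus overlapped between lines, but a sum follows its brightest probes and does not show single genes. In the fibroblast sum COL1A1, with means of -0.27 in pLUM and -0.83 in pLB, outweighed COL1A2, at -7.49 and -1.86. The part of such cells in the desmosome differences was not tested.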

How the data were processed

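RNA of 3 pLUM and 3 pLB samples was hybridized by the authors to single-color Agilent arrays (Cy3), and the deposited files are scanner tables from Agilent Feature Extraction 10.10.1.1 with an intensity per spot, background-subtracted and detrended within the array but not normalized between arrays, with positions on hg19. Partek is named in the submitters' processing notes, and its output was not used here. From the deposited intensities, control spots and outlier spots (296 to 387 an array) were left out, values were scaled to the 75th percentile of the array on the log2 scale, and spots of a probe were averaged. On each array 21287 to 22778 of 34127 probes were well above background. Lines were compared with lmFit and eBayes of limma 3.58.1 in R 4.3.3, a fit first tested on simulated data. Of several tested probes, the one with the highest mean stands for its gene in lists. The number of arrays limits the precision.

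The members, gene lists, motifs and gene pairs were chosen with earlier results of these data known. Named genes are all members, the lists given in the text (1 further factor is not reported here), and the tested genes within 1 Mb of the chromosome 18 cluster. Marker lists also covered fibroblasts, immune, endothelial and adipose cells. Alternatives were normexp background correction (offset 50), quantile, median and spike-in scaling, other filters, a signal floor, Student's t-test named in the methods, other probe rules, slide and replicate blocks, and leaving out each array. Exons of hg19, and protein sequences, were not analysed here.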

Additional observations from a re-analysis of the deposited data

How the results depend on the processing

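No desmosome gene that was called changed direction under any alternative run. Of the counts recomputed under alternatives, 145 stayed within 1.5 times the reported count and 3 did not. The latter were all probes called higher with normexp background correction (3004 against 5054) and the desmosome probes and genes called higher when all 6 arrays had to be above background, 6 and 5 against 10 and 8, since fewer were then tested. Normexp and quantile normalization each left 9 probes and 7 genes, without DSC1 and without PKP3, respectively, and no detection filter gave 11 and 9 with DSG1. Spike-in scaling called 6140 probes higher and 4277 lower in all, against 5054 and 5477, with the same 10 and 8 desmosome calls. With each array left out in turn, 10 to 10 desmosome probes and 8 to 8 genes were called higher and 0 to 0 lower, 4 to 4 partners higher and 1 to 1 lower, 4994 to 5122 probes higher and 5107 to 6160 lower in all, and DSC1 ranged from 1.54 to 2.29 and PKP3 from 1.14 to 1.38. Student's t-test with Benjamini-Hochberg adjustment called the same counts of 10 probes and 8 genes. Replicate numbers did not pair the samples (r of same-numbered deviations -0.27, -0.09 and -0.22), and with the replicate block 10 probes and 8 genes were again called higher. Under normexp the shift of DSC1 to DSC2 was -1.87, and with a signal floor those of DSG3 to DSG2 and DSG1 to DSG2 were 5.04 and -2.52. For dim probes, signal over background limits what could be measured. The normexp correction also added an offset of 50 to every intensity, which by itself makes the folds of dim probes smaller. Deposited pLUM intensities were 23.8 to 30.5 for DSG2 and 3.30 to 3.56 for DSG3. A smaller normexp fold of such probes is therefore no separate evidence on their background. How much of each change came from the offset was not tested.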
